A study of Mus musculus with 12 samples.

Results

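Interferon response genes were followed in livers of female mice whose grandparents had lacked Khdc3, which encodes part of a protein complex of the egg cytoplasm. The set was made of the rows of the normalized count table whose symbol was 1 of 33 listed genes of the type I and type II interferon response. All 33 were found among the 25069 genes of the table, and all 33 passed the filter on low values that left 14473 genes for testing. Each of 12 libraries came from the liver of 1 mouse. All 12 mice were genetically wild type and the groups of 4 differed in ancestry. The WT mice (numbers 116, 117, 118 and 120) had wild-type ancestors throughout. The WTMM mice (6, 7, 8 and 9) descended from Khdc3-null grandmothers on both their mother's and their father's side, and the WTPP mice (2, 3, 6 and 7) from grandfathers null for Khdc3 on either side. The labels give neither age nor strain, and do not say which mice were littermates, so p-values measure the spread between these mice. They name the tissue as liver and the cell type as hepatocyte, but markers of Kupffer cells and lymphocytes were present in all 12 libraries. The libraries held 25070718 to 35843972 reads assigned to genes.

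Interferons are secreted proteins by which cells signal infection. Type I interferons act through the receptor chains IFNAR1 and IFNAR2 and the kinases JAK1 and TYK2, which activate a factor complex holding STAT2 and IRF9 that binds the interferon-stimulated response element (ISRE) in target promoters. Interferon gamma, the type II interferon made chiefly by T and NK cells, acts through IFNGR1 and IFNGR2 and the kinases JAK1 and JAK2, and its target promoters hold the gamma-activated site (GAS). Target genes encode sensors of viral nucleic acid, antiviral effectors, GTPases that attack the vacuoles of intracellular pathogens, and feedback inhibitors, and in liver they are expressed by hepatocytes as well as by Kupffer cells and other leukocytes.

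In livers descended from null grandmothers, 7 of the 33 genes were lower than in WT and none was higher. They were Irf1 and Irf9, which encode transcription factors of the response, the guanylate-binding protein gene Gbp2, and the genes of 4 immunity-related GTPases, Igtp, Irgm1, Ifi47 and Tgtp1. Of all tested genes, 5.94% were called lower in this comparison, 4.44% higher and 10.4% in either direction. The log2 fold change was below 0 for 32 of the 33 genes, against 49.9% of all tested genes, and its median was -0.57, against 0.00 over all genes. In livers descended from null grandfathers, 2 of the 33 were lower, Irf1 and Igtp, against 5.53% of all genes called lower, 4.68% called higher and 10.2% in either direction. There 26 of 33 log2 fold changes were below 0, against 51.2% of all genes, with a median of -0.19, against -0.01. The limma fit with a Benjamini-Hochberg adjustment over all 14473 genes was used throughout, with a threshold of 0.05, and the comparisons with WT share the same 4 control libraries. At an unadjusted p under 0.05, 17 of the 33 were lower in WTMM and 0 higher, against 14.2% and 13.1% of all genes. In WTPP 9 were lower and 1 was higher, against 14.1% and 12.5%. The libraries of WTMM and WT did not overlap in 6 of the 33, all lower in WTMM, against 9.55% of all genes lower and 9.29% higher. Those of WTPP and WT did not overlap in 1, Irf1, against 7.81% lower and 7.33% higher. In the same livers 11 of 12 Kupffer cell markers fell in WTMM and 12 of 12 in WTPP, and their part in these results was not tested.

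**Figure D1:**
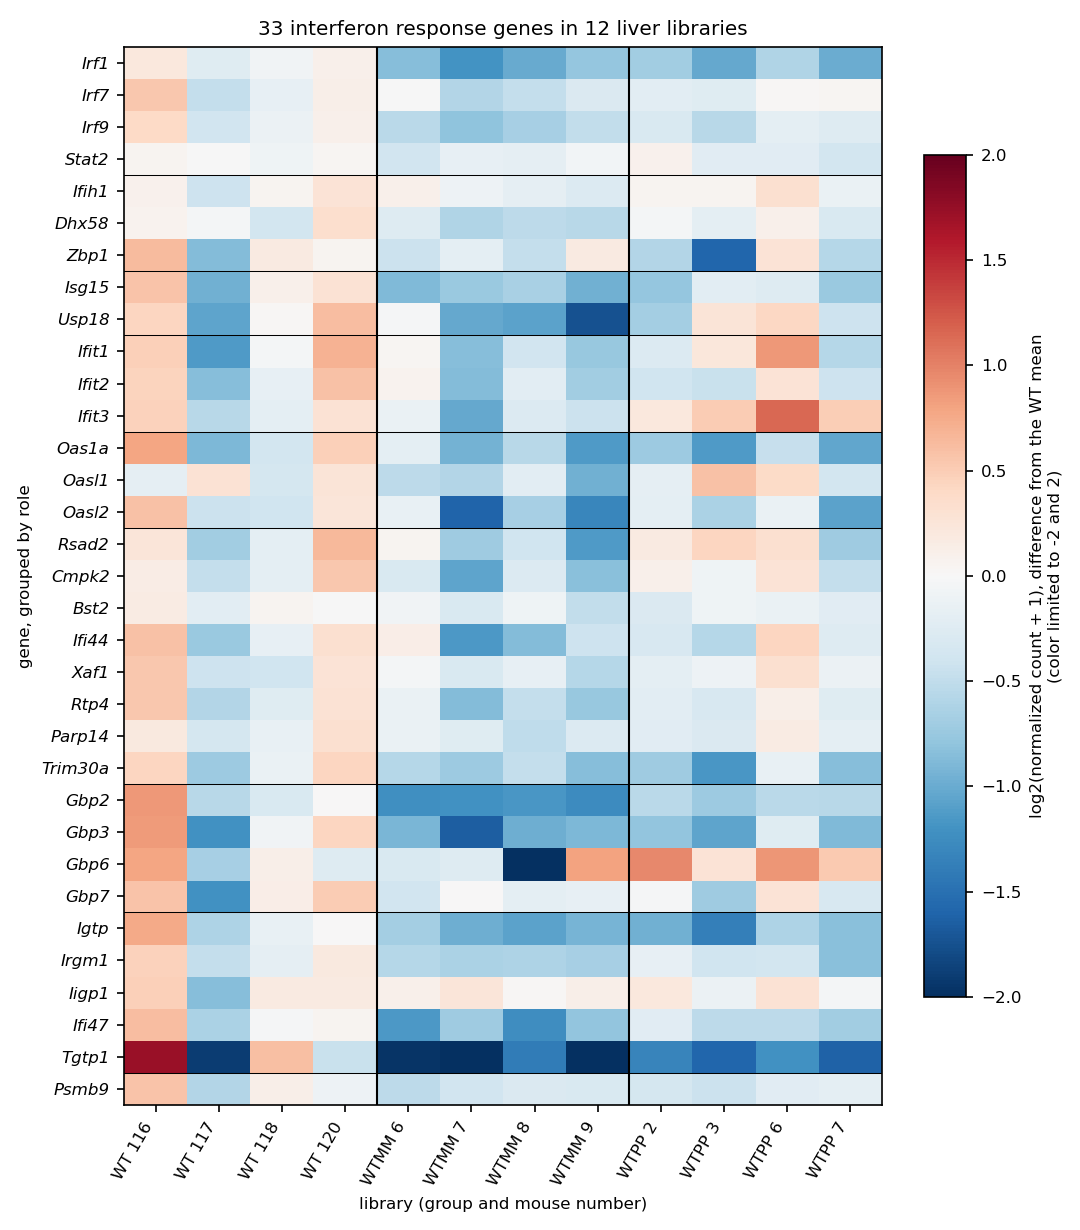
Each cell gives a library's log2(normalized count + 1) for 1 of the 33 genes, as the difference from the mean of the 4 WT libraries, with color limited to -2 and 2; rows are genes by role, columns the 12 libraries by group. Blue (below the WT mean) fills most of the WTMM columns, while WT 116 is mostly red and WT 117 mostly blue.

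The WT libraries were not alike in these genes. WT 117 was the lowest of the 4 in 30 of the 33 genes, whereas it was the lowest in 36.1% of all tested genes. WT 116 was the highest in 24 of the 33, against 26.3% of all genes. Among the descendants, WTPP 6 was the highest of its group in 22 genes and WTMM 6 in 17. Without WT 117, the genes called, all of them lower, numbered 13 in WTMM (7.39% of all genes called lower) and 12 in WTPP (7.85%). Without WT 116, when Gbp6 dropped below the filter and 32 were tested, they numbered 5 in WTMM (3.29%) and 2 in WTPP (2.68%), and without both libraries, an alternative added after these data were seen, 9 (3.43%) and 4 (2.99%). With array weights, which gave WT 117 the lowest weight of the 12 libraries, they numbered 13 (10.2%) and 6 (7.8%). The fewest left by omitting 1 library were 3 in WTMM without WTMM 7 (3.3%) and 1 in WTPP without WTPP 3 (4.8%). Irf1 was called lower in both descendant groups, and Gbp2 and Ifi47 in WTMM, under all 23 alternatives run.

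Promoters of selected members, some of them not called, are shown for the response elements they hold. The members were listed as interferon response genes, so more frequent elements than in other genes were foreseeable and are no result of these livers. RefSeq windows of 300 bases, 250 before to 50 after an annotated start, were at hand on GRCm38.p6 for 26 of the 33 genes (31 windows). The first 25 bases after the start lay within a GENCODE transcript of the gene in 21 of the 31. The ISRE was searched as GAAA, any 2 bases and GAAA, and the GAS as TTC, any 3 bases and GAA, on both strands; the GAS reads the same on either. At least 1 ISRE stood in a window of 15 of the 26 genes (57.7%), against 3.99% of the 27025 genes with a window. A GAS stood in 7 (26.9%), against 9.55% of genes. Both stood together in 5 member windows (16.1%), against 0.454% of all windows of this length. The stretches of 90 bases below run 5′ to 3′ on the strand of the gene, in lower case, with matches of the motifs in capitals; where matches overlap, the capitals cover their union. The first 3 are of Irf1, with a GAS alone, and of Igtp and Tgtp1, with a GAS whose ISRE begins 11 bases after the first base of the GAS in both genes.

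Irf1, chr11:53769883-53769972, plus strand: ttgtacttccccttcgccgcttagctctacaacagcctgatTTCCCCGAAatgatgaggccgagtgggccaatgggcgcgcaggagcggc
Igtp, chr11:58199476-58199565, plus strand: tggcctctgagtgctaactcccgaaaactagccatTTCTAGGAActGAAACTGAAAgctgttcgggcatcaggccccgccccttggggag
Tgtp1, chr11:48992280-48992369, minus strand: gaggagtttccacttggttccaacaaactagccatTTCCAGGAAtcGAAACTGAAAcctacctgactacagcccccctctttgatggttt

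The next 5 held ISRE matches in these stretches. Irgm1 and Gbp2 were called lower in WTMM, Ifit3 differed between the descendant groups, and Isg15 and Oas1a are type I targets not called at an adjusted p of 0.05 over all 12 libraries. The windows of Irf9 and Ifi47, which were also called lower in WTMM, held neither motif. A match describes letters in a window, not a bound site, and no binding was measured here.

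Irgm1, chr11:48871399-48871488, minus strand: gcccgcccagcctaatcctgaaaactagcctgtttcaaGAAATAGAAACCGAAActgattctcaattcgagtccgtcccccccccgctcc
Gbp2, chr3:142620563-142620652, plus strand: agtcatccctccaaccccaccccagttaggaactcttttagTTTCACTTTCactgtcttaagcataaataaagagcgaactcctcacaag
Ifit3, chr19:34583349-34583438, plus strand: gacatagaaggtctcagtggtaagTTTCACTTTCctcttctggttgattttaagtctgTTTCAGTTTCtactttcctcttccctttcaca
Isg15, chr4:156200842-156200931, minus strand: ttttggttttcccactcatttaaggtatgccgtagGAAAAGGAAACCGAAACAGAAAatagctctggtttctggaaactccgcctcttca
Oas1a, chr5:120907511-120907600, minus strand: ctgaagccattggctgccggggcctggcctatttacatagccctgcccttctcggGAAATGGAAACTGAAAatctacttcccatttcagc

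Among the transcription factors of the response, Irf1 and Irf9 were lower in the descendants of null grandmothers and Irf1 also in those of null grandfathers. Values per library are given throughout in ascending order of mouse number. Irf1 (ENSMUSG00000018899.16, chromosome 11, 53770014 to 53778374, GRCm38) encodes a factor that interferon gamma induces strongly and that in turn activates further targets. Irf1 stood at 2265, 1661, 1872 and 2102 normalized counts for WT, 1091, 858, 971 and 1147 for WTMM and 1205, 961, 1289 and 983 for WTPP. All 8 descendant libraries were below all 4 WT libraries, and the 2 descendant groups overlapped. It fell 1.94-fold in WTMM (log2 fold change -0.96 ± 0.13 SE, adjusted p = 0.000997) and 1.78-fold in WTPP (log2 fold change -0.83 ± 0.13 SE, adjusted p = 0.00236). The exons of Irf1 overlap those of Gm17334 on the opposite strand over 3.40% of their bases.

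Irf9 (ENSMUSG00000002325.14, chromosome 14, 55603571 to 55610030), the DNA-binding subunit of the type I complex, stood at 1259.9, 738, 887 and 1024 normalized counts for WT, 661, 546, 606 and 683 for WTMM and 779, 650.5, 841 and 799 for WTPP. The 4 WTMM libraries were below every WT library, while WTPP overlapped both other groups. Irf9 fell 1.54-fold in WTMM (log2 fold change -0.62 ± 0.14 SE, adjusted p = 0.0165), a call lost without WTMM 7 (adjusted p from 0.00214 to 0.0528 over 23 alternatives). In WTPP it did not pass (log2 fold change -0.33, 95% interval -0.64 to -0.02, adjusted p = 0.164), though without WT 117 it was called lower there too. Its partner Stat2 and the factor gene Irf7, which amplifies type I interferon production, passed in neither comparison. Their log2 fold changes were -0.19 and -0.34 in WTMM, and -0.18 and -0.10 in WTPP.

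The immunity-related GTPases, interferon gamma-induced proteins that in mice act on vacuoles holding intracellular parasites and bacteria, were the group with the most calls. In WTMM 4 of 5 fell, with a median log2 fold change of -0.91, and in WTPP 1 of 5 did, with a median of -0.49. Of all tested genes, 5.94% and 5.53% were called lower. Igtp (ENSMUSG00000078853.8, chromosome 11, 58199556 to 58207591), also known as Irgm3, a regulator of the family, stood at 4198, 1611, 2236 and 2475 normalized counts for WT, 1543, 1251, 1179 and 1301 for WTMM and 1269.5, 963, 1613 and 1383 for WTPP. Every WTMM library was below every WT library, by a narrow margin between WTMM 6 and WT 117, and WTPP 6 lay just above WT 117. Igtp fell 1.88-fold in WTMM (log2 fold change -0.91 ± 0.23 SE, adjusted p = 0.0239) and 1.92-fold in WTPP (log2 fold change -0.94 ± 0.23 SE, adjusted p = 0.0212). The first call was lost without WTMM 7, 8 or 9 (adjusted p from 0.00333 to 0.061 over 23 alternatives). The second was lost without WTPP 3 (adjusted p from 0.00486 to 0.0522 over 23 alternatives). Over these alternatives the log2 fold change ran from -1.12 to -0.66 in WTMM and from -1.15 to -0.69 in WTPP. Exons of Igtp share 8.01% of their bases with its neighbour Irgm2 on the same strand.

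Ifi47 (ENSMUSG00000078920.3, chromosome 11, 49076587 to 49096974), the gene of the GTPase IRG-47, stood at 1494, 629, 958 and 1016 normalized counts for WT, 440.0, 595, 412 and 564 for WTMM and 839, 678, 682 and 602 for WTPP. The WTMM libraries lay below all others, and WTPP overlapped WT through WT 117 alone. It fell 1.97-fold in WTMM (log2 fold change -0.98 ± 0.21 SE, adjusted p = 0.0123) and did not pass in WTPP (log2 fold change -0.49, 95% interval -0.94 to -0.04, adjusted p = 0.154). With WT 117 left out, Ifi47 was called lower in WTPP too. Irgm1 (ENSMUSG00000046879.7, chromosome 11, 48861968 to 48871683), which encodes a regulatory GTPase of the family, stood at 2961, 1546, 1884 and 2453 normalized counts for WT, 1442, 1375, 1402 and 1352 for WTMM and 1912, 1628, 1669 and 1204 for WTPP. WTMM values were close together and below all of WT, whereas WTPP overlapped WT. Irgm1 fell 1.54-fold in WTMM (log2 fold change -0.62 ± 0.18 SE, adjusted p = 0.039), a call lost in 8 of 23 alternatives, among them leaving out WT 116, 118 or 120 or any 1 WTMM library (adjusted p from 0.00655 to 0.103 over 23 alternatives), and WTPP did not pass (log2 fold change -0.44, 95% interval -0.82 to -0.06, adjusted p = 0.129). Irgm1 was also called lower in WTPP once WT 117 was left out.

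Tgtp1 (ENSMUSG00000078922.9, chromosome 11, 48985327 to 48994172), a gene of an immunity-related GTPase that loads onto parasite vacuoles, was the member with the largest log2 fold change and 1 of the least expressed. It stood at 186, 14.1, 84.6 and 40.6 normalized counts for WT, 13.4, 11.4, 20.5 and 12.8 for WTMM and 21.7, 17.7, 23.3 and 17.4 for WTPP. WT spread more than 10-fold, with WT 116 far above the rest and WT 117 inside the WTMM range. Tgtp1 fell 3.71-fold in WTMM (log2 fold change -1.89 ± 0.56 SE, adjusted p = 0.0449), a call lost in 16 of 22 alternatives (adjusted p from 0.00254 to 0.117 over 22 alternatives), and did not pass in WTPP (log2 fold change -1.43, 95% interval -2.63 to -0.24, adjusted p = 0.116). Its transcript matches that of Tgtp2 over 99.6% of its length at 95% identity or more, so how reads divide between them is uncertain, and with both summed the WTMM call was also lost. Tgtp1 was called lower in WTPP as well when WT 117 was left out.

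Iigp1, the gene of the effector GTPase Irga6, showed no such difference. It stood at 16415, 6556, 13388 and 13370.4 normalized counts for WT, 12657, 13936, 11982 and 12730.4 for WTMM and 13645, 10919, 14341 and 11527 for WTPP. All 8 descendant libraries lay within the WT range, which WT 117 and WT 116 bound. Neither comparison passed, and the 95% interval of the log2 fold change ran from -0.34 to 0.58 in WTMM and from -0.37 to 0.55 in WTPP. Per kilobase of exon, Iigp1 had 2135 normalized counts in WT, second among the 33 to Bst2 at 2922 and ahead of Igtp at 1301. Tgtp1 had 25.4 on the same scale.

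**Figure D2:**
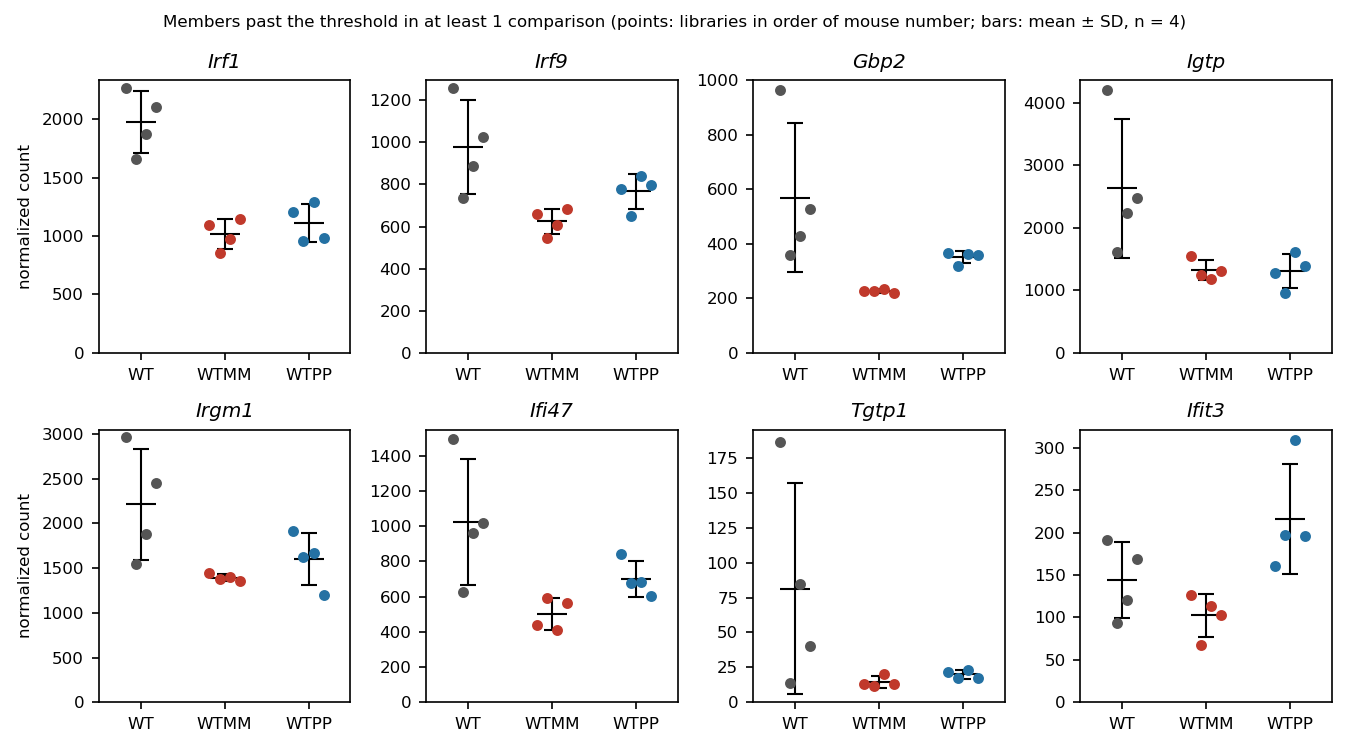
Normalized counts of the 8 members past the threshold in at least 1 of the 3 comparisons; points are libraries in order of mouse number (grey WT, red WTMM, blue WTPP) and bars the mean ± SD of 4 mice. In Irf1 all descendant points lie below WT, at 858 to 1289 against 1661 to 2265, and Ifit3 is the panel in which WTPP is highest.

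Of the 4 guanylate-binding protein genes, whose products coat and disrupt pathogen vacuoles, Gbp2 fell in WTMM and 0 of 4 passed in WTPP. Shares of all tested genes called lower were 5.94% in WTMM and 5.53% in WTPP. Gbp2 (ENSMUSG00000028270.12, chromosome 3, 142620602 to 142638008) stood at 964, 358, 428 and 529 normalized counts for WT, 226, 229, 235 and 219.8 for WTMM and 365, 319, 364 and 361 for WTPP. The WTMM libraries lay below all other libraries and within a narrow band, and 3 of the 4 WTPP libraries lay just above WT 117, the lowest of WT. Gbp2 fell 2.32-fold in WTMM (log2 fold change -1.21 ± 0.22 SE, adjusted p = 0.00546), the means being 569.7 ± 272 and 228 ± 6.45 (SD, n = 4 each). In WTPP it did not pass (log2 fold change -0.59, 95% interval -1.06 to -0.11, adjusted p = 0.106), though without WT 117 it was called lower there too. Gbp3 missed the threshold with a similar size of difference in WTMM (log2 fold change -1.11, 95% interval -1.85 to -0.36, adjusted p = 0.0567) and without WT 117 was called lower in both comparisons. Gbp7 had log2 fold changes of -0.18 in WTMM and -0.19 in WTPP. Gbp6 had 131 reads over all 12 libraries, and its transcript matches Gbp10 over 68.0% of its length; its log2 fold changes were -0.75 and 0.66, with wide intervals.

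Isg15 and its protease, the IFIT and oligoadenylate synthetase families, the sensors and the other antiviral effectors gave no call in either comparison with WT over all 12 libraries. Shares of all tested genes called lower were 5.94% in WTMM and 5.53% in WTPP. Isg15, a ubiquitin-like modifier, stood at 521, 179, 374 and 428 normalized counts for WT, 189, 209, 223 and 179 for WTMM and 204, 302, 294 and 209 for WTPP. WT 116, 118 and 120 lay above all 8 descendant libraries, and WT 117 was the lowest of the 12. The comparison with WTMM missed the threshold (log2 fold change -0.81, 95% interval -1.37 to -0.25, adjusted p = 0.0629), as did that with WTPP (log2 fold change -0.49, 95% interval -1.05 to 0.07, adjusted p = 0.245), and without WT 117 both were called lower. The annotated gene AC151275.1 matches 63.8% of its transcript.

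Usp18, the protease that removes ISG15 and dampens type I receptor signaling, stood at 216, 76.8, 163 and 247 normalized counts for WT, 158, 78.3, 76.2 and 47.3 for WTMM and 100.03, 193, 214 and 121 for WTPP. Values crossed between groups, with WTMM 9 lowest and WT 120 highest. Neither WTMM (log2 fold change -0.97, 95% interval -1.82 to -0.12, adjusted p = 0.13) nor WTPP (log2 fold change -0.11, 95% interval -0.95 to 0.74, adjusted p = 0.894) passed. Usp18 was called lower in WTMM, but not in WTPP, without WT 117 and with array weights.

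The 2'-5'-oligoadenylate synthetase family holds enzymes whose oligoadenylate product activates RNase L, and related proteins. Over all 12 libraries 0 of its 3 members passed in any comparison. Shares of all tested genes called lower were 5.94% in WTMM, 5.53% in WTPP and 1.88% between them. By an unadjusted p under 0.05, 2 of the 3 were lower in WTMM and 1 in WTPP, with 0 higher, against 14.2% and 14.1% of all genes lower. Oas1a stood at 95.8, 29.3, 42.8 and 77.2 normalized counts for WT, 48.1, 28.2, 37.5 and 24.6 for WTMM and 33.001, 24.8, 39.9 and 26.5 for WTPP, with WT 116 and 120 above all descendants (log2 fold change -0.71, 95% interval -1.44 to 0.02, adjusted p = 0.195 in WTMM and log2 fold change -0.84, 95% interval -1.57 to -0.11, adjusted p = 0.133 in WTPP). Oas1a was called lower in WTPP, but not in WTMM, when WT 117 was left out. Its transcript matches Oas1g over its whole length. Oasl1, which in mice represses translation of Irf7, stood at 104, 144, 91.9 and 140.4 normalized counts for WT, 81.7, 78.3, 101 and 60.1 for WTMM and 104, 178, 154 and 91.4 for WTPP, where it was the only member with WT 117 as the highest WT library. WTMM 6, 7 and 9 were below all of WT (log2 fold change -0.57, 95% interval -1.07 to -0.07, adjusted p = 0.13), and WTPP spanned the WT range (log2 fold change 0.11, 95% interval -0.39 to 0.61, adjusted p = 0.809). Oasl2 stood at 155, 76.8, 78.3 and 122 normalized counts for WT, 92.9, 33.4, 64.8 and 41.4 for WTMM and 89.7, 66.4, 94.2 and 48.4 for WTPP, with WTMM 7 and 9 lowest (log2 fold change -0.93, 95% interval -1.63 to -0.23, adjusted p = 0.084 in WTMM and log2 fold change -0.51, 95% interval -1.21 to 0.19, adjusted p = 0.343 in WTPP).

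The sensors of nucleic acid behaved likewise, with 0 of 3 past the threshold, against 5.94% and 5.53% of all genes called lower. By an unadjusted p under 0.05, 1 was lower in WTMM and 0 in WTPP, with 0 higher, against 14.2% and 14.1% of all genes lower. Dhx58 encodes LGP2, a relative of RIG-I, and stood at 262, 240.5, 192 and 314 normalized counts for WT, 207, 163, 172 and 169.5 for WTMM and 242, 218, 265 and 201 for WTPP. The WTMM libraries were at or below the lower end of WT, WTMM 6 crossing into it, and the comparison missed the threshold narrowly (log2 fold change -0.49, 95% interval -0.80 to -0.17, adjusted p = 0.0525), while WTPP overlapped WT fully (log2 fold change -0.11, 95% interval -0.43 to 0.21, adjusted p = 0.692). Zbp1, a sensor of Z-form nucleic acid that triggers cell death, stood at 484, 171, 353 and 323 normalized counts for WT, 231, 273, 223 and 352 for WTMM and 208, 104, 378 and 209 for WTPP, with WT 116 highest and WTPP 3 lowest. Its intervals were wide (log2 fold change -0.23, 95% interval -0.98 to 0.52, adjusted p = 0.708 in WTMM and log2 fold change -0.61, 95% interval -1.36 to 0.14, adjusted p = 0.282 in WTPP). Ifih1, the gene of the sensor MDA5, had log2 fold changes of -0.11 and 0.07.

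Of 8 further effectors, none passed in either comparison with WT, with medians of -0.55 in WTMM and -0.15 in WTPP. Shares of all tested genes called lower were 5.94% and 5.53%. By an unadjusted p under 0.05, 4 of the 8 were lower in WTMM and 1 in WTPP, with 0 higher, against 14.2% and 14.1% of all genes lower. Trim30a, a TRIM-family ubiquitin ligase of mice, stood at 341, 153, 232 and 341 normalized counts for WT, 170.2, 152, 181 and 140.0 for WTMM and 155, 112, 228 and 139.8 for WTPP. WT 116, 118 and 120 lay above all descendants and WT 117 among them (log2 fold change -0.66, 95% interval -1.20 to -0.12, adjusted p = 0.109 in WTMM and log2 fold change -0.72, 95% interval -1.26 to -0.18, adjusted p = 0.0862 in WTPP). Without WT 117 Trim30a was called lower in both. Cmpk2, a mitochondrial nucleotide kinase gene next to Rsad2, stood at 109.8, 70.7, 86.7 and 144 normalized counts for WT, 80.6, 47.5, 81.9 and 55.2 for WTMM and 106, 93.8, 121 and 71.3 for WTPP, with WTMM 7 and 9 lowest (log2 fold change -0.61, 95% interval -1.14 to -0.08, adjusted p = 0.126 in WTMM and log2 fold change -0.04, 95% interval -0.57 to 0.49, adjusted p = 0.931 in WTPP). Rsad2, which encodes the antiviral enzyme viperin, Ifi44, Xaf1, Rtp4, Parp14 and Bst2, the gene of the virus-retaining protein tetherin, had log2 fold changes of -0.58 to -0.23 in WTMM and of -0.19 to 0.06 in WTPP. Among these, Rtp4 was called lower in WTMM, but not in WTPP, without WT 117 and with array weights.

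Psmb9, a catalytic subunit of the immunoproteasome, which trims peptides for class I presentation, stood at 1036, 459.8, 754 and 647 normalized counts for WT, 484, 532, 569 and 559.9 for WTMM and 546, 518, 596 and 607 for WTPP. WT 116, 118 and 120 exceeded all descendants and WT 117 was the lowest library of all. Neither WTMM (log2 fold change -0.38, 95% interval -0.76 to 0.01, adjusted p = 0.197) nor WTPP (log2 fold change -0.30, 95% interval -0.68 to 0.09, adjusted p = 0.316) passed, and both were called lower without WT 117. Exons of Psmb9 and Tap1 overlap on opposite strands over 5.79% of the bases of Psmb9.

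**Figure D3:**
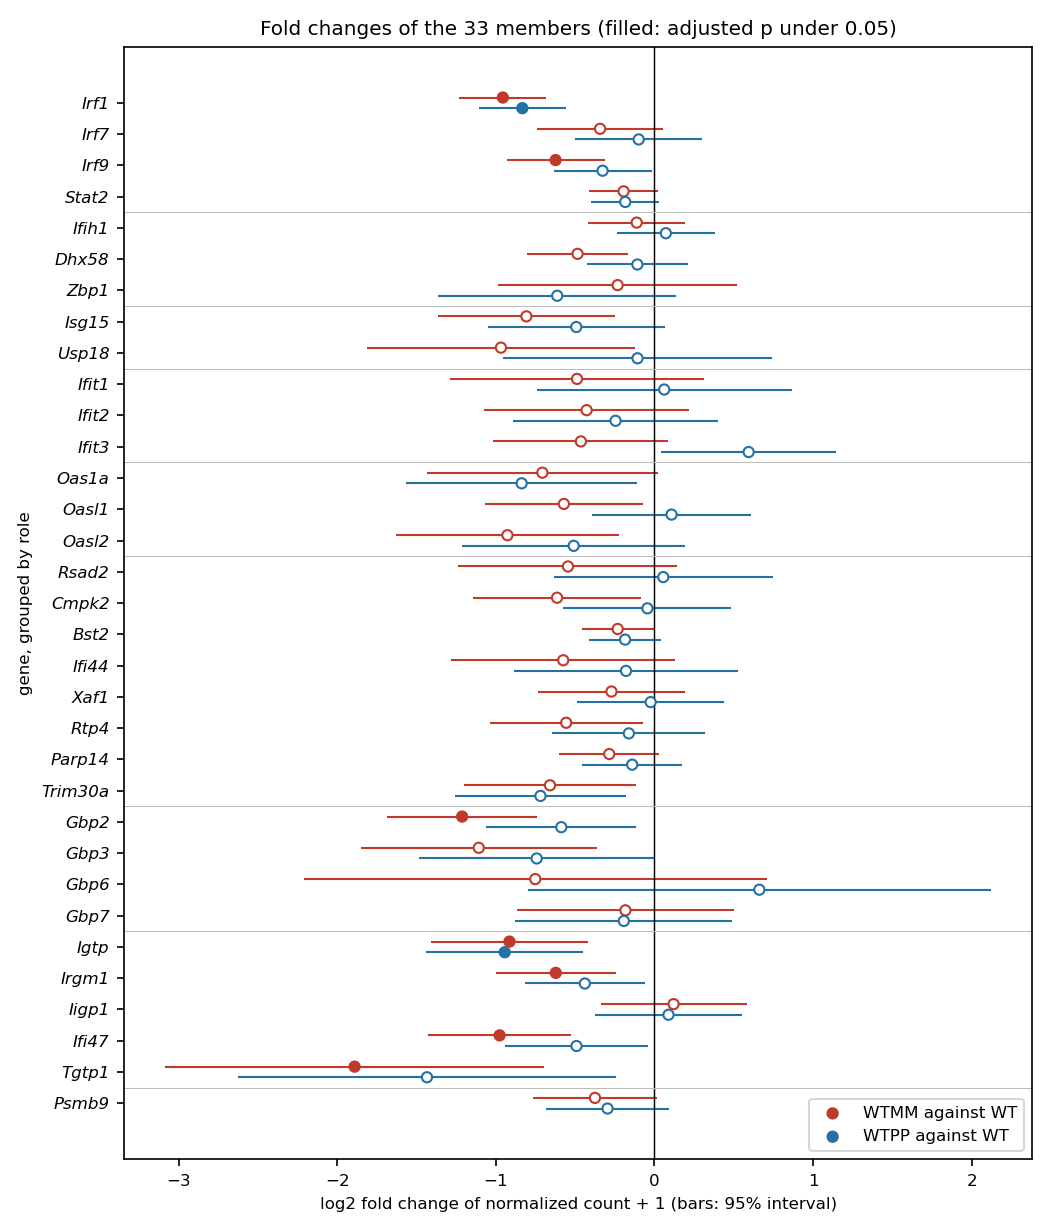
Log2 fold change of each of the 33 members, on the scale of normalized count + 1, in WTMM (red) and WTPP (blue) against WT, with 95% intervals; filled points passed an adjusted p of 0.05. The 7 filled red points lie between -1.89 (Tgtp1) and -0.62 (Irgm1). Of the 33 red intervals 17 lie wholly below 0 and the others cross it, among them those of Iigp1, Stat2 and Ifih1.

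When the 33 were divided by the interferon each is best known to answer, the calls lay mainly among the 11 interferon gamma targets (Irf1, the guanylate-binding proteins, the immunity-related GTPases and Psmb9). In WTMM 6 of these 11 fell, with a median log2 fold change of -0.91, against 5.94% of all tested genes called lower. Of the 22 type I targets 1 fell, Irf9, near that share, with a median of -0.52. In WTPP 2 of 11 and 0 of 22 fell, with medians of -0.49 and -0.15, against 5.53% of all genes. Without WT 117 the counts were 8 of 11 and 5 of 22 in WTMM (7.39% of all genes) and 8 of 11 and 4 of 22 in WTPP (7.85%). Without WT 116 they were 4 of 10 and 1 of 22 in WTMM (3.29%) and 2 of 10 and 0 of 22 in WTPP (2.68%). Many of these genes answer both interferons, and the difference between the lists was not tested. In the direct comparison of descendants, 1 of the 33 passed, against 1.88% of all genes called lower in WTMM than in WTPP, 2.29% higher and 4.17% in either direction. Without WT 116, 2 passed (1.79% of all genes lower). Of the 33, 27 had a log2 fold change below 0, against 50.1% of all genes, with a median of -0.30 against 0.00. The libraries did not overlap in 3, Ifit3, Gbp2 and Ifi47, all lower in WTMM, against 6.23% of all genes lower and 6.94% higher. At an unadjusted p under 0.05, 7 were lower and 0 higher, against 9.21% and 9.36% of all genes.

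The gene that passed was Ifit3, at ENSMUSG00000074896.3 on chromosome 19 (34583531 to 34588731). It encodes 1 of the IFIT proteins, which bind viral RNA and restrain its translation. Ifit3 stood at 192, 94.0, 120.1 and 169 normalized counts for WT, 127, 67.8, 114 and 103 for WTMM and 161, 197, 309 and 195 for WTPP. Each WTPP library was above each WTMM library, and WT overlapped both. It was 2.08-fold lower in WTMM than in WTPP (log2 fold change -1.06 ± 0.26 SE, adjusted p = 0.035), a call lost in 9 of 25 alternatives, among them leaving out WTMM 7, 8 or 9 or WTPP 3, 6 or 7 (adjusted p from 0.0208 to 0.203 over 25 alternatives). Against WT neither WTMM (log2 fold change -0.46, 95% interval -1.02 to 0.09, adjusted p = 0.262) nor WTPP (log2 fold change 0.59, 95% interval 0.04 to 1.15, adjusted p = 0.158) passed. Reads of Ifit3 and Ifit3b, which match over 97.4% of the Ifit3 transcript, may divide unevenly, and with both summed the difference still passed. Ifit1 and Ifit2 had log2 fold changes of -0.55 and -0.18 between WTMM and WTPP and did not pass. Gbp2 and Ifi47 also had every WTMM library below every WTPP library, but neither passed (log2 fold change -0.63, adjusted p = 0.138 for Gbp2 and log2 fold change -0.48, adjusted p = 0.236 for Ifi47), and Gbp2 did pass without WT 116.

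Upstream of these genes, the interferons themselves were barely detected and 4 of 5 tested receptor genes passed in no comparison, while 3 genes of transcriptional regulators outside the 33 were lower in WTMM. Of 21 interferon genes listed, 1 had a row, Ifng. It had 14 reads in WT, found in WT 116, 118 and 120, 0 in WTMM and 3 in WTPP, all in WTPP 3, too few to test. Of 6 receptor genes 5 were tested, and 1 rose in WTPP, against 4.68% of all tested genes called higher. Ifngr2, a chain of the interferon gamma receptor, stood at 529, 286, 465 and 516 normalized counts for WT, 513, 588, 531 and 600.3 for WTMM and 704, 529, 780.3 and 712 for WTPP, with all WTPP libraries above WT, by the narrowest margin between WTPP 3 and WT 116. It rose 1.54-fold in WTPP (log2 fold change 0.63 ± 0.18 SE, adjusted p = 0.0379) and did not pass in WTMM (log2 fold change 0.35, 95% interval -0.03 to 0.73, adjusted p = 0.214). Ifnar1, Ifnar2, Ifngr1 and Il10rb passed in neither comparison, with log2 fold changes between -0.22 and 0.15.

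Of 10 kinases, factors and transactivators outside the 33, 3 fell in WTMM (Stat3, Irf5 and Ciita) and 1 in WTPP (Ciita). The shares of all tested genes called lower were 5.94% and 5.53%. Ciita, the class II transactivator that interferon gamma induces, had the largest fold change of the 10, at 271, 146, 173 and 170.1 normalized counts for WT, 38.1, 37.8, 42.1 and 44.4 for WTMM and 72.2, 45.1, 53.2 and 72.2 for WTPP. Both descendant groups were below all WT libraries, and WTMM was also below WTPP. It fell 4.47-fold in WTMM (log2 fold change -2.16, adjusted p = 0.000112) and 3.07-fold in WTPP (log2 fold change -1.62, adjusted p = 0.000694). Irf5, a factor of Toll-like receptor signaling, stood at 681, 672, 659.9 and 900.3 normalized counts for WT, 427, 577, 498 and 444 for WTMM and 828, 799, 671 and 633 for WTPP, so that WTMM lay below both other groups, which overlapped. Irf5 fell 1.49-fold in WTMM (log2 fold change -0.58, adjusted p = 0.0154), and it differed between WTMM and WTPP (log2 fold change -0.59, adjusted p = 0.0246). Stat3 fell 1.28-fold in WTMM (log2 fold change -0.36, adjusted p = 0.0494). Jak1, Jak2 and the 5 others passed in neither comparison with WT, though Tyk2, a kinase of the type I receptor, was lower in WTMM than in WTPP (log2 fold change -0.36, adjusted p = 0.0283).

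**Figure D4:**
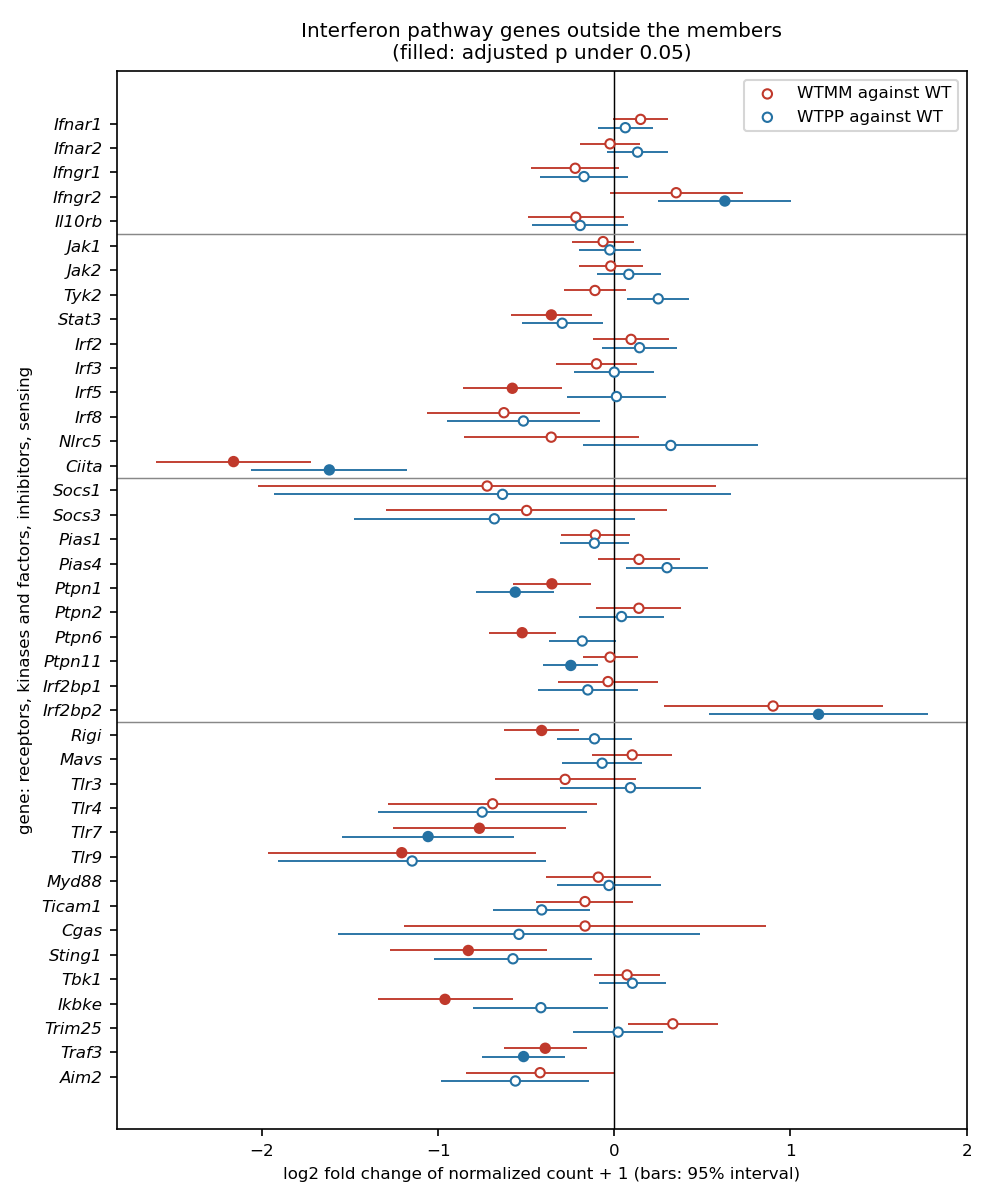
Log2 fold changes with 95% intervals of interferon receptor genes, kinases and factors, inhibitors, and nucleic acid sensing genes outside the 33, in WTMM (red) and WTPP (blue) against WT; filled points passed an adjusted p of 0.05. Ciita lies farthest to the left, at -2.16 and -1.62, and the filled points to the right of 0 are Ifngr2 and Irf2bp2 in WTPP.

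Genes of inhibitors of the pathway moved in both directions. Of 10, Ptpn1 and Ptpn6 fell in WTMM, Ptpn1 and Ptpn11 fell in WTPP, and Irf2bp2 rose in WTPP. Of all tested genes, 5.94% were called lower in WTMM, and 5.53% lower and 4.68% higher in WTPP. Ptpn1, a phosphatase gene whose product acts on JAK2 and TYK2, fell 1.28-fold in WTMM (log2 fold change -0.35, adjusted p = 0.0436) and 1.48-fold in WTPP (log2 fold change -0.56, adjusted p = 0.00596). Ptpn6, which encodes SHP-1 of blood cells, stood at 1036, 858, 839 and 814 normalized counts for WT, 619, 582, 609.5 and 647 for WTMM and 844, 768, 762 and 742 for WTPP, with WTMM below both other groups. It fell 1.44-fold in WTMM (log2 fold change -0.52, adjusted p = 0.00406) and was lower in WTMM than in WTPP (log2 fold change -0.34, adjusted p = 0.0464). Ptpn11, the gene of the related phosphatase SHP-2, fell 1.19-fold in WTPP (log2 fold change -0.25, adjusted p = 0.0457). Irf2bp2, a corepressor partner of IRF2, stood at 574, 648, 598 and 510.2 normalized counts for WT, 1479, 1228, 1408 and 541 for WTMM and 1684, 1754, 841 and 1140.1 for WTPP. WTMM 9 lay within WT while the other 7 descendants lay above it. Irf2bp2 rose 2.23-fold in WTPP (log2 fold change 1.16, adjusted p = 0.0238) and did not pass in WTMM (log2 fold change 0.90, 95% interval 0.28 to 1.52, adjusted p = 0.0624). Socs1 and Socs3, the feedback inhibitors that interferons induce, passed in neither comparison.

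Of 15 sensing genes outside the 33, 6 fell in WTMM (Rigi, Tlr7, Tlr9, Sting1, Ikbke and Traf3) and 2 in WTPP (Tlr7 and Traf3). Of all tested genes, 5.94% and 5.53% were called lower. Ikbke, the kinase IKK-epsilon that phosphorylates IRF3 and IRF7, stood at 1110.4, 914, 1157 and 1322 normalized counts for WT, 448, 675, 757 and 470.2 for WTMM and 839, 1065, 779 and 701 for WTPP. WTMM lay below all of WT, and WTPP overlapped WT through WTPP 3 alone. It fell 1.95-fold in WTMM (log2 fold change -0.96, adjusted p = 0.00593). Traf3, an adaptor of the same branch, fell 1.31-fold in WTMM (log2 fold change -0.39, adjusted p = 0.038) and 1.43-fold in WTPP (log2 fold change -0.52, adjusted p = 0.0118). Tlr7, the endosomal receptor for single-stranded RNA, fell 1.70-fold (log2 fold change -0.77, adjusted p = 0.0475) and 2.08-fold (log2 fold change -1.06, adjusted p = 0.0121) in the same order. Rigi, the RNA sensor RIG-I, fell 1.33-fold in WTMM (log2 fold change -0.41, adjusted p = 0.0205).

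A wider list of 86 interferon-induced genes outside the 33 had 84 rows, of which 79 were tested. In WTMM 23 fell and 0 rose, with a median log2 fold change of -0.50, and in WTPP 9 fell and 0 rose, with a median of -0.32, against 5.94% and 5.53% of all genes called lower. Without WT 117 the genes called lower numbered 37 and 27 (7.39% and 7.85% of all genes), and without WT 116 they numbered 9 and 7 (3.29% and 2.68%). Gbp2b, formerly Gbp1, stood at 2461, 598, 1289 and 1858 normalized counts for WT, 429, 224, 306 and 425 for WTMM and 552, 364, 452 and 481 for WTPP, with every descendant library below all 4 WT libraries. It fell 4.09-fold in WTMM (log2 fold change -2.03, adjusted p = 0.00409) and 2.995-fold in WTPP (log2 fold change -1.58, adjusted p = 0.0125). Slfn2, a schlafen gene that keeps mouse T cells quiescent, fell 2.40-fold (log2 fold change -1.26, adjusted p = 0.00546) and 2.66-fold (log2 fold change -1.41, adjusted p = 0.00308). Samhd1, which depletes the nucleotides that viruses need, fell 1.69-fold (log2 fold change -0.76, adjusted p = 0.00388) and 1.54-fold (log2 fold change -0.62, adjusted p = 0.00978). Tap1, a chain of the peptide transporter of class I presentation, fell 1.71-fold in WTMM (log2 fold change -0.77, adjusted p = 0.00409) and did not pass in WTPP (log2 fold change -0.33, 95% interval -0.62 to -0.05, adjusted p = 0.122). Between descendants, Parp12 and Ube2l6, the conjugating enzyme of ISG15, were lower in WTMM than in WTPP (log2 fold change -0.37, adjusted p = 0.0478 and log2 fold change -0.49, adjusted p = 0.0245).

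Calls of these genes outside the 33 differed in how far they depended on single libraries. In WTMM those of Ciita, Irf5, Ptpn6, Ikbke, Gbp2b, Slfn2, Samhd1 and Tap1 held under all 23 alternatives, and in WTPP those of Ciita, Ptpn1, Tlr7, Traf3, Gbp2b, Slfn2 and Samhd1. Rigi in WTMM was lost in 2, without WT 120 or WTMM 9. In WTPP, Irf2bp2 was lost in 6, among them leaving out WT 116, 118 or 120 or WTPP 2 or 3. Ifngr2 was lost in 8, among them leaving out WT 118, WTMM 7 or 8 or WTPP 2, 6 or 7. Traf3 in WTMM was lost in 7, Ptpn1 in 10, and Stat3 and Tlr7 in 15 each, as was Ptpn11 in WTPP. Between WTMM and WTPP, of 25 alternatives, Irf5 was lost in 6, Ube2l6 in 8, Tyk2 in 9, and Ptpn6 and Parp12 in 15 each.

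Markers of leukocytes were lower in the same livers. Of all tested genes, 5.94% were called lower in WTMM and 5.53% in WTPP. Of 12 Kupffer cell markers, 11 fell in WTMM and 12 in WTPP, and their summed normalized counts were 21493 to 46749 for WT, 13999.9 to 18469 for WTMM and 14702 to 19063 for WTPP. Of 11 tested T and NK cell markers, 8 fell in WTMM and 4 in WTPP, with sums of 396 to 903, 198 to 222 and 230.0 to 286 over the 12 listed. B and plasma cell markers fell in 5 of 8 and 3 of 8, with sums of 582 to 1291, 260.2 to 393 and 349 to 612 over 9. Neutrophil markers fell in 4 of 5 and 0 of 5, with sums of 193 to 653, 98.9 to 138 and 122 to 234 over 8. Dendritic cell markers, of which Bst2 is also 1 of the 33, passed in 0 of 4 in both comparisons, with sums of 2344 to 3069, 1931 to 2573 and 2211 to 2531 over 7. Bst2 alone stood at 2278 to 2936, 1877 to 2515 and 2144 to 2466, so these sums mostly describe Bst2. None of these markers was at 0 in all 12 libraries, though the neutrophil genes Ly6g and Mpo were at 0 in most. Without WT 116 the markers called lower in WTMM and WTPP numbered 10 and 9 of 12 for Kupffer cells, 4 and 2 of 9 for T and NK cells, 2 and 1 of 8 for B cells and 1 and 0 of 5 for neutrophils. Of all tested genes, 3.29% and 2.68% were then called lower. Sinusoidal endothelial markers passed in 0 of 8 in both comparisons, and of 7 hepatocyte markers 1 fell in each, Cps1 in WTMM and Hnf4a in WTPP.

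Among the WT libraries, WT 116 was highest and WT 117 lowest in the median over the 33 interferon genes and over the Kupffer, T and NK, B cell and neutrophil markers, while WT 118 and 120 did not keep 1 order. Taking each gene relative to its WT mean, the median over the 33 was 1.34, 0.628, 0.869 and 1.16 in WT 116, 117, 118 and 120. Over the 12 Kupffer cell markers it was 1.40, 0.631, 0.945 and 0.966. In WT 118 and 120 the B cell markers stood at 1.08 and 0.768 and the neutrophil markers at 1.16 and 0.667, the reverse of the order of the 33. Dendritic cell markers were lowest in WT 118. The 11 interferon gamma targets stood at 0.449 to 0.587 in WTMM and 0.559 to 0.753 in WTPP, the 22 type I targets at 0.565 to 0.877 and 0.769 to 1.11, and the Kupffer markers at 0.426 to 0.571 and 0.448 to 0.583. In whole liver, fewer cells of a type and less RNA per cell cannot be told apart.

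**Figure D5:**
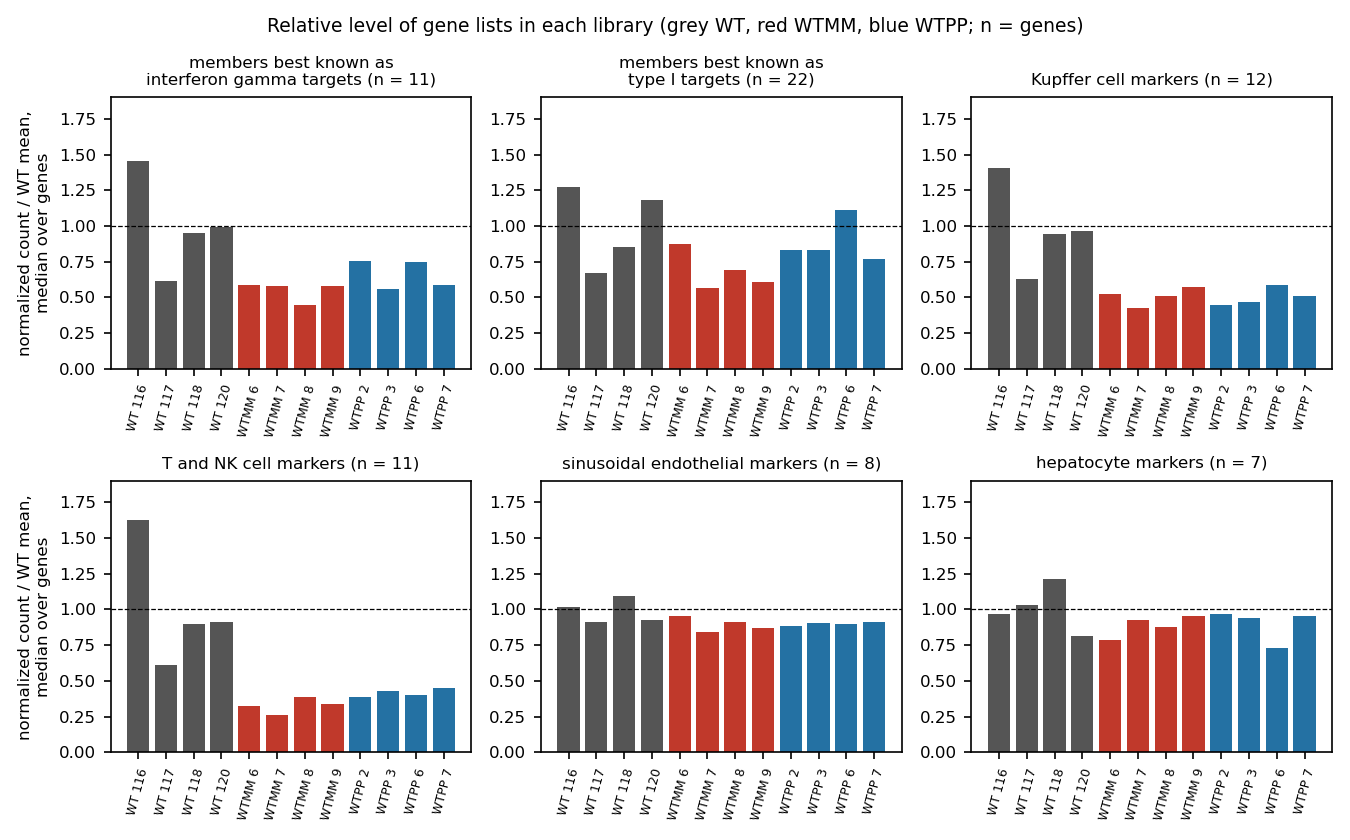
Bars give, for each library, the median over the genes of a list of the normalized count divided by the WT mean, for interferon gamma and type I targets among the 33 and for markers of 4 liver cell types (grey WT, red WTMM, blue WTPP). T and NK markers stand at 0.262 to 0.389 in WTMM and 0.388 to 0.452 in WTPP, while sinusoidal endothelial markers stay between 0.839 and 1.09 throughout.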

How the data were processed

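Total RNA from 12 livers was isolated with a Qiagen kit meant for lipid tissue and sequenced from strand-marking libraries, per the labels' protocols. The submitters' processing notes name cutadapt, HISAT2, DESeq2 and GRCm38; no version, gene counter or use of strand is given in the sources used here. The authors deposited log2 values, log2(normalized count + 0.1), for 25069 genes. After subtraction of 0.1 from the antilog, 100% of values were whole multiples of 1 step per library within 0.001 reads, so reads and totals (25070718 to 35843972) were recovered; counts of 3 reads or fewer carry large counting error. WT library numbers stand apart from the others; if a batch followed them, batch and ancestry cannot be told apart.

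From these, log2(normalized count + 1) was computed and 3 group means were fitted to it (R 4.3.3, limma 3.58.1), the variance following a trend over the mean, for genes with a mean of at least 10, with Benjamini-Hochberg adjustment at 0.05 over 14473 genes. Fold changes on this scale understate those of low genes. Near-identical transcripts were sought with BLAST 2.17.0. Coordinates came from GENCODE M21, sequences from RefSeq. The procedure was run on simulated data in which only better expressed genes were changed and genes varied independently. That run cannot speak to changes in low genes or to shifts that many genes of 1 library share. The members, lists and rules were chosen with earlier results of these data known. Values per library were given for members past the threshold in any contrast or with the smallest p of their role group; of the wider lists at most 4 genes with the smallest p were named; Iigp1 and any further gene were picked with their values in view. 1 gene of the wider lists is not reported here. Alternatives changed the pseudocount, filter, scaling, trend, weights, voom and libraries.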

Additional observations from a re-analysis of the deposited data

Results flagged for a closer look

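Of 99 sets of 4 libraries (33 genes in 3 groups), 3 held a library far from its group, and chance flags about 1 in 20 sets. Gaps and ranges were taken on the scale of log2(normalized count + 1). Ifit2 was 168 normalized counts in WTPP 6, whose gap to the next library took 0.915 of the range of the group. Gbp2 in WTPP 3 was 319, below the other WTPP libraries by 0.914 of the range. Gbp3 in WTMM 7 was 114, below the others by 0.909 of the range.

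The descendant groups differed in 6 of 152 tested genes, the 33 and the wider pathway lists, by the limma test of the difference itself. All 6 (3.95%) were lower in WTMM than in WTPP, and of all tested genes 1.88% were called lower, 2.29% higher and 4.17% in either direction. These were Ifit3 (log2 fold change -1.06, adjusted p = 0.035), Irf5 (-0.59, adjusted p = 0.0246), Ube2l6 (-0.49, adjusted p = 0.0245), Parp12 (-0.37, adjusted p = 0.0478), Tyk2 (-0.36, adjusted p = 0.0283) and Ptpn6 (-0.34, adjusted p = 0.0464). Every WTMM library was below every WTPP library for all 6. The 6 were picked by the test on these same libraries, so this separation adds no support.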

How the results depend on the processing

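The median log2 fold change of the 33 genes kept its sign under all alternatives run, at -0.78 to -0.45 in WTMM, -0.45 to -0.07 in WTPP and -0.35 to -0.19 between them. The number of members called was less steady, and the cause was not tested. Leaving out each library in turn gave 3 to 13 called in WTMM, 1 to 12 in WTPP and 0 to 2 between them. The share of all genes called lower moved as well. In WTMM it was 3.3% without WTMM 7, which gave 3, and 7.39% without WT 117, which gave 13. In WTPP it was 4.8% without WTPP 3, which gave 1, and 7.85% without WT 117, which gave 12. Between descendants it was 0.836% to 1.4% in the 6 fits that called 0 (3 to 8 members lower and 0 higher at an unadjusted p under 0.05) and 1.79% without WT 116, which called 2. With array weights, which gave WT 117 the lowest weight of 0.287, 13 were called in WTMM and 6 in WTPP (10.2% and 7.8% of all genes). Without WT 116 and 117 together 4 were called in WTPP (2.99% of all genes lower) and 2 between descendants (2.4%). Between WTMM and WTPP, 0 were called without the trend (1.29% of all genes lower; 5 members lower and 0 higher at an unadjusted p under 0.05). Mouse numbers 6 and 7 occur in both descendant groups, but deviations from the group means did not go together (r = -0.15 and -0.07 across genes, which are not independent replicates). With a single pair of libraries per number, this cannot settle whether the mice share more than a number, and the labels do not say. On those 4 libraries the replicate block gave 0 members and 32 genes called, against 0 and 38 without it. Depth limits Gbp6, Tgtp1 and Oas1a most, with 131, 523 and 550 reads over the 12 libraries.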
